A study of Rattus norvegicus with 24 samples.

Results

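The change of the cytokine response between 6 h and 12 h was followed in rat INS-1E cells kept in DMSO. INS-1E is an insulinoma line, 1 clonal line of tumour origin that makes insulin, and it serves as a model of the pancreatic beta cell. Of the 24 expression arrays in the series, the 12 with DMSO were compared here. They form 4 groups of 3 arrays: cytokines for 12 h, no cytokines for 12 h, cytokines for 6 h and no cytokines for 6 h. The cytokine mixture held IL-1beta at 10 ng/ml, IFN-gamma at 50 ng/ml and TNF-alpha at 25 ng/ml. All 12 carried the vehicle DMSO, the untreated ones included. The other 12 arrays had the same cytokine and time conditions with the compound BRD0476 at 10 uM. For each of 14217 genes with a name, all of those measured, the quantity described is the cytokine effect at 12 h (cytokines minus untreated, on the log2 scale of the intensity) minus the same effect at 6 h, called the time difference below. A positive time difference means that the effect was higher at 12 h, which covers both a rise that grew and a fall that shrank.

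IFN-gamma binds its receptor and activates JAK kinases, which leads to IRF1 and then to a wide set of antiviral and antigen-presentation genes. The receptors of IL-1beta and TNF-alpha signal to NF-κB and to MAP kinases, and these induce chemokines, adhesion molecules and their own inhibitors, and in beta cells they also bring on stress of the endoplasmic reticulum (ER). Such responses are known to differ in timing between genes: short-lived transcripts and feedback loops can let one gene peak and decay while its neighbour in the pathway still accumulates.

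The median log2 intensity of an array lay between 5.49 and 5.57, and arrays of one group correlated with r between 0.992 and 0.998 across probe sets. The labels do not say whether the 3 arrays of a group came from separate cultures, so p-values measure the spread between these arrays only, and a change in the number of cells of a state cannot be told apart from a change of RNA per cell. Of the beta-cell markers, 9 of 12 had a named probe set, and all 9 reached a group mean of at least 7, with Ins1 at 14.56 in cytokine-treated and 14.58 in untreated cells at 12 h. None of 10 measured leukocyte markers reached 7 (highest group mean 5.32). Among the other lineages, 1 of 6 markers of other islet endocrine cells (Gcg), 1 of 9 of fibroblasts (Thy1), 2 of 6 of endothelium (Esam and Egfl7) and 1 of 9 of exocrine and ductal cells (Krt7) did. Across the 12 DMSO arrays the first principal component, with 74.6% of the variance, separated cytokines from none, and the second, with 13.8%, separated the 12 h from the 6 h cytokine arrays. The third, with 4.45%, set the cytokine array numbered 3 apart from the other two at both times, at -21.5 against 10.3 and 11.4 at 12 h and at -22.2 against 9.46 and 9.65 at 6 h. With both of these arrays left out, 1668 genes had a higher and 2272 a lower effect at 12 h, against 1681 and 2408 with all arrays.

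The time difference was called, at an adjusted p under 0.05 in limma over all 14217 genes, for 4089 genes. Of these, 1681 (11.8% of all genes) had a higher and 2408 (16.9%) a lower cytokine effect at 12 h than at 6 h, and 215 and 385 of them by at least 1 on the log2 scale. Counts of gene list members given below stand beside these 2 shares, and a count near them is not a result about the list. The median over all genes was -0.02, with quartiles at -0.25 and 0.18, and the median standard error was 0.14. The cytokine effect itself was called for 2271 genes up (16%) and 4257 down (29.9%) at 12 h, against 3453 up (24.3%) and 3892 down (27.4%) at 6 h. Of the 4943 genes called at both times, 4458 went the same way and 485 went opposite ways. Both effects share no array, but each enters the time difference.

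**Figure D1:**
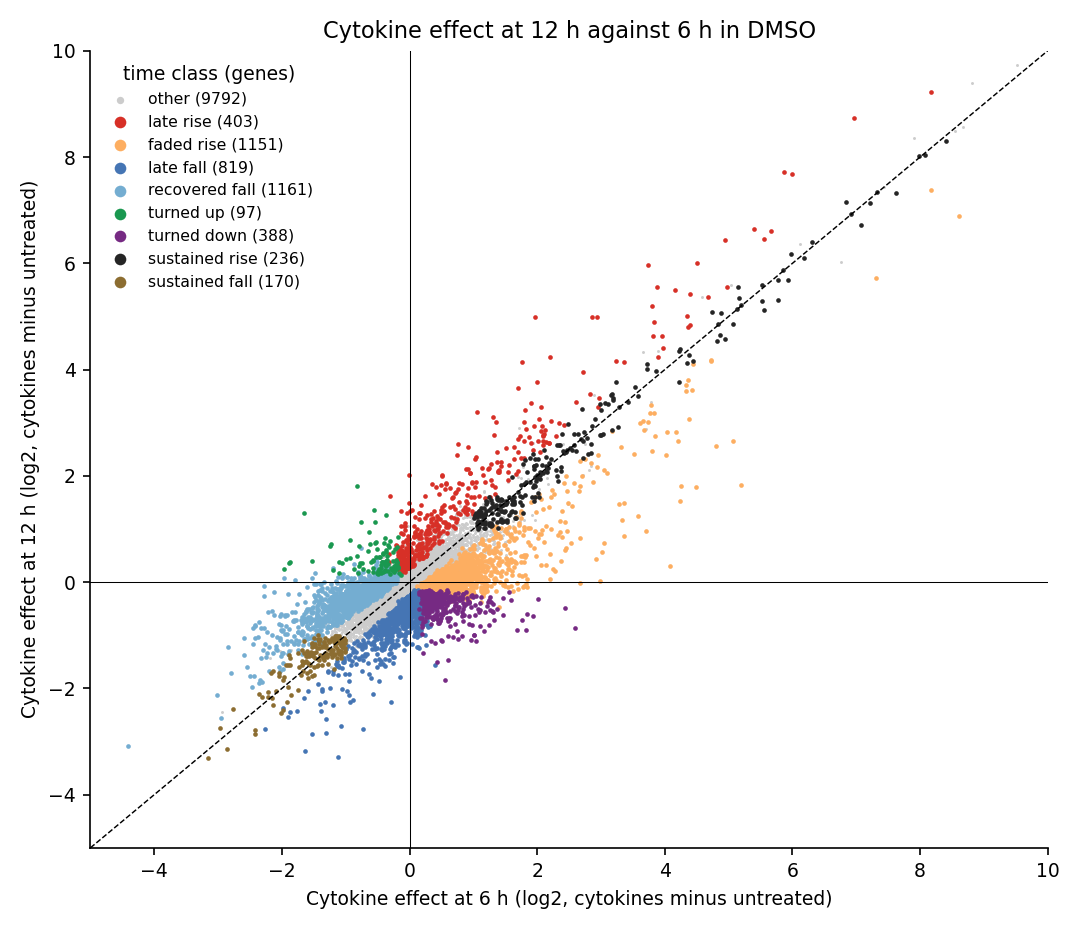
Cytokine effect on each of 14217 genes at 12 h (vertical axis, log2, cytokines minus untreated) and at 6 h (horizontal axis, same scale), each point a gene coloured by its time class, with the dashed line where both effects are equal. Points of the faded rise (1151 genes) lie below the line, with a median of 0.05 at 12 h and 343 of them still called up there, and those of the late rise (403 genes) lie above it.

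Genes were sorted by the calls at both times. A late rise (403 genes) was called up at 12 h with a positive time difference, and a faded rise (1151 genes) was called up at 6 h with a negative one. The late fall (819) and the recovered fall (1161) mirror these. The names say how the effect changed and not that it was absent at 1 time: 233 of the late rises and 259 of the late falls were already called at 6 h, and 343 of the faded rises and 695 of the recovered falls were still called at 12 h. A further 97 genes turned up, being called up at 12 h and down at 6 h, and 388 turned down, called down at 12 h and up at 6 h. A sustained response, called the same way at both times with at least 1 on the log2 scale at each and a time difference not called whose 95% interval lay between -1 and 1, was seen for 236 rises and 170 falls. Of the 887 genes that rose by at least 1 at 6 h, 387 had a negative time difference, 110 a positive one and 390 none that was called. Of the 717 that fell by at least 1 at 6 h, 423 had a positive time difference, 38 a negative one and 256 none that was called. These genes were picked by their 6 h effect, which the time difference subtracts. Part of each split therefore follows from the selection, and how much was not tested. The median effect in the faded rise was 0.05 at 12 h, against 0.72 at 6 h, and in the late rise 1.06 at 12 h, against 0.33 at 6 h.

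The time difference combines what happened with time in treated and in untreated cells. In cytokine-treated cells 2619 genes were higher (18.4%) and 3284 lower (23.1%) at 12 h than at 6 h. In untreated cells 66 were higher (0.464%) and 172 lower (1.21%). These last counts depended on single arrays and settings: leaving out 1 array at a time gave 29 to 135 higher and 103 to 187 lower, and array weights gave 824 and 721. In 5.71% of the late rises, 3.21% of the faded rises, 5.86% of the late falls and 6.63% of the recovered falls the untreated mean moved further than the treated one.

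**Figure D2:**
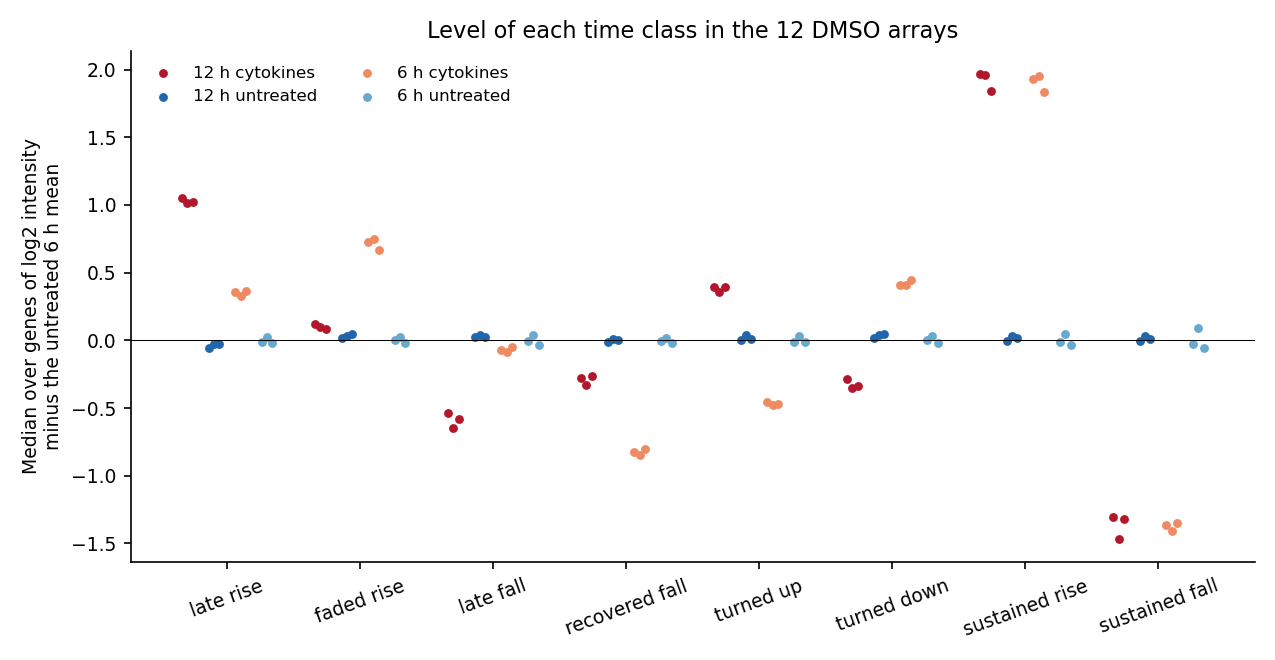
Median over the genes of each time class of the log2 intensity minus the mean of the untreated 6 h arrays, 1 point per array, with the 12 h cytokine, 12 h untreated, 6 h cytokine and 6 h untreated arrays side by side. The untreated arrays stay within 0.1 of 0 in every class. The classes were set by these same values, so the distances between groups are a description.

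Several chemokines rose late. Ccl2, which attracts monocytes, had log2 intensities of 8.40, 8.44 and 8.44 in cytokine-treated and 3.57, 3.44 and 3.27 in untreated arrays at 12 h, and 5.50, 5.06 and 5.43 in cytokine-treated and 3.29, 3.44 and 3.37 in untreated arrays at 6 h. All 3 treated arrays at 12 h lay above all 3 at 6 h, while the untreated arrays of both times overlapped near the lower quartile of all values (3.84), a level at which a change is best read as a lower bound because no detection calls were given. The effect was 5.0 at 12 h, against 1.97 at 6 h, a time difference of 3.03 ± 0.18 (± standard error here and below, limma adjusted p = 1e-10). Of 26 measured chemokines, 6 had a higher and 2 a lower effect at 12 h, with a median time difference of 0.19, against -0.02 over all genes. Cxcl1, a neutrophil attractant, rose further (1.77 ± 0.33, adjusted p = 3.29e-04), as did Cx3cl1 (1.24 ± 0.30) and Cxcl12 (1.21 ± 0.23). The CXCR3 ligands were high at both times. Cxcl9 had an effect of 8.04 at 12 h, against 8.07 at 6 h, and its time difference of -0.04 ± 0.33 was not called (adjusted p = 0.957). For Cxcl10 the values were 9.40 at 12 h and 8.81 at 6 h, with a time difference of 0.59 ± 0.67 that was not called (adjusted p = 0.585), but was with only the DMSO arrays (adjusted p = 0.0203).

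Cytokine ligands included further late genes. Tnfsf10, the death ligand TRAIL, had 9.84, 9.83 and 9.97 in cytokine-treated and 4.78, 4.88 and 5.02 in untreated arrays at 12 h, and 8.02, 7.90 and 7.97 in cytokine-treated and 4.76, 5.42 and 4.88 in untreated arrays at 6 h. Treated arrays of both times did not overlap and untreated ones did, and the time difference was 2.05 ± 0.25 (adjusted p = 2.35e-06). Tnf, one of the 3 cytokines added to the cells, gave 8.53, 8.06 and 7.90 in cytokine-treated and 4.52, 4.48 and 4.54 in untreated arrays at 12 h, and 6.63, 6.21 and 6.35 in cytokine-treated and 4.67, 4.59 and 4.82 in untreated arrays at 6 h. Its own transcript had a time difference of 1.95 ± 0.25 (adjusted p = 3.86e-06), with both of its probe sets in that direction. Of 30 ligands measured, 8 had a higher and 3 a lower effect at 12 h. Gdf15, a stress-induced hormone, and Hbegf, an EGF receptor ligand, were 2 of the 3: Gdf15 had a time difference of -2.16 ± 0.29 and Hbegf of -1.33 ± 0.18. Hbegf was lower with cytokines at 12 h (-2.86 ± 0.13) and already lower, by less, at 6 h (-1.53 ± 0.13).

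Among the inhibitors of cytokine receptors, Socs1, which blocks JAK kinases and is induced by the pathway it restrains, had 8.57, 8.96 and 8.24 in cytokine-treated and 4.60, 4.63 and 4.14 in untreated arrays at 12 h, and 6.14, 6.26 and 5.90 in cytokine-treated and 4.19, 4.34 and 4.47 in untreated arrays at 6 h. Treated arrays at 12 h lay above all those at 6 h, a time difference of 2.37 ± 0.29 (adjusted p = 2.03e-06), while its second probe set had the other sign. Of 23 JAK, interferon receptor and SOCS genes, 5 had a higher and 5 a lower effect at 12 h. Socs2 (0.63 ± 0.23, adjusted p = 0.0415) was on the first side, a call lost in the fit with only the DMSO arrays (adjusted p = 0.0986) and when 1 of 7 arrays was left out (6 h untreated 2 or 3, 6 h cytokine 3, 12 h untreated 1 or 3, 12 h cytokine 1 or 2, adjusted p between 0.0601 and 0.12). Socs5 (-0.78 ± 0.14) and Pias3 (-0.67 ± 0.09), an inhibitor of STAT3, were on the second. Socs3 lay between 4.22 and 4.54 in the group means and its time difference of 0.01 ± 0.20 was not called (adjusted p = 0.971). Among 22 IL-1 and TNF receptor components, 4 had a higher and 6 a lower effect at 12 h. Il1r1, the signalling IL-1 receptor, had an effect of 0.24 ± 0.06 at 12 h and -0.73 ± 0.06 at 6 h, and its adaptor Myd88 had 0.58 ± 0.11 and -0.66 ± 0.11, so both turned up. The decoy receptor Il1r2 rose at both times and more at 12 h (0.76 ± 0.11, adjusted p = 1.72e-05).

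Of 22 NF-κB subunits and inhibitors 5 were higher and 3 lower, against 11.8% higher and 16.9% lower over all genes. Nfkbiz, an atypical nuclear IκB, had 9.23, 8.99 and 8.93 in cytokine-treated and 4.84, 4.89 and 4.72 in untreated arrays at 12 h, and 7.10, 6.91 and 6.64 in cytokine-treated and 4.58, 4.97 and 4.51 in untreated arrays at 6 h. This gave a time difference of 2.04 ± 0.18 (adjusted p = 2.91e-08), with 1 of its 2 probe sets of the other sign. The RNA-degrading feedback factor Zc3h12a followed with 1.43 ± 0.32. Relb, the subunit of the non-canonical arm, rose at both times but less at 12 h (2.75 ± 0.16, against 3.85 ± 0.16 at 6 h, adjusted p of the difference = 6.95e-04), as did the adaptor Traf2 (0.63 ± 0.09, against 1.53 ± 0.09). The inhibitor Nfkbia, a direct NF-κB target, had 3.29 ± 0.08 at 12 h and 2.95 ± 0.08 at 6 h, a small difference (adjusted p = 0.0306). It was not called with only the DMSO arrays (adjusted p = 0.0836), after quantile normalization (0.0701), or without 1 of 5 arrays (6 h untreated 3, 6 h cytokine 1 or 2, 12 h untreated 3, 12 h cytokine 3, adjusted p between 0.0687 and 0.0916). Tnfaip3 (A20), Icam1 and Sod2 were sustained: their time differences were 0.24 ± 0.17, 0.31 ± 0.26 and 0.04 ± 0.11, none of them called (adjusted p = 0.344, 0.428 and 0.855).

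All 30 measured interferon-induced GTPases and antiviral effectors were called up at both times, of which 13 had a higher and 4 a lower effect at 12 h and 10 were sustained rises. The median time difference was 0.17. The promoters of 2 of the late genes are shown because they hold the letters bound by interferon-activated factors. Sequences are the RefSeq promoters of the rat assembly GRCr8, 250 bases before to 50 bases after the start of the gene, 5′ to 3′ on the gene's strand, and capitals mark the matches.
Irgm promoter, chr10:33742529-33742828, minus strand: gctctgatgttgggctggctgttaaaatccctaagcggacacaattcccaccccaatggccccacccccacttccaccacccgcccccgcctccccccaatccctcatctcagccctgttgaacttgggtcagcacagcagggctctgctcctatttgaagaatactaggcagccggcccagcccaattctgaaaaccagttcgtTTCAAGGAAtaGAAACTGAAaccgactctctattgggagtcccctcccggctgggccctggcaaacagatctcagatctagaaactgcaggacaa
Ifit3 promoter, chr1:241527076-241527375, plus strand: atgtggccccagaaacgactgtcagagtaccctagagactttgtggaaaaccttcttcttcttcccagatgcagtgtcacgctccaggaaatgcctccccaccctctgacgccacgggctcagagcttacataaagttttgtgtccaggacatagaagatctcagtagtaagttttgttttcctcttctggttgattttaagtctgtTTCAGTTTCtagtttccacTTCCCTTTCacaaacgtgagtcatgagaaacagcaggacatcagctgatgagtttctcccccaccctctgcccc
In the Irgm promoter the capitals are TTCAAGGAA, a match to the STAT-type letters TTCNNNGAA that begins 45 bases before the start, and GAAACTGAA, a match to the IRF-type letters GAAANNGAA that begins 34 bases before it. In Ifit3 they are 2 matches to the reverse complement, TTCNNTTTC, beginning 43 and 24 bases before the start. The IRF-type letters occur, on either strand, in 9.5% of 27457 promoters, in 7.19% of the 11700 promoters of measured genes and in 70.8% of the 24 promoters of this list. By class they occur in 22.7% of 181 sustained-rise, 10.3% of 331 late-rise and 9.36% of 962 faded-rise promoters, so they are not particular to late genes. A match is a description of the letters and not a shown binding site.

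Irgm, an immunity-related GTPase, had 12.33, 12.21 and 12.02 in cytokine-treated and 6.23, 6.22 and 6.23 in untreated arrays at 12 h, and 10.22, 9.93 and 9.84 in cytokine-treated and 6.10, 6.42 and 6.25 in untreated arrays at 6 h. The untreated arrays stayed level and the treated arrays climbed, a time difference of 2.22 ± 0.14 (adjusted p = 1.99e-10). Ifit3 had 9.31, 9.62 and 9.53 in cytokine-treated and 4.07, 3.58 and 4.13 in untreated arrays at 12 h, and 7.52, 7.23 and 7.57 in cytokine-treated and 3.81, 3.40 and 3.49 in untreated arrays at 6 h, a time difference of 1.69 ± 0.20 (adjusted p = 1.64e-06). Its neighbour in function Ifit2, which binds viral RNA, had 1.69 ± 0.18, and Samhd1, which depletes nucleotides, had 1.81 ± 0.16. Mx2, an antiviral GTPase, stayed high and read 12.66, 12.92 and 12.88 in cytokine-treated and 4.34, 4.72 and 4.47 in untreated arrays at 12 h, and 12.76, 12.85 and 12.85 in cytokine-treated and 4.58, 3.88 and 4.78 in untreated arrays at 6 h. Its time difference was -0.11 ± 0.40 (95% interval -0.93 to 0.72, adjusted p = 0.887). Isg15, Usp18, Rtp4 and Gbp4 were sustained as well, with time differences of 0.04 ± 0.29, -0.07 ± 0.23, 0.01 ± 0.22 and 0.02 ± 0.20 and effects of 8.02, 7.14, 7.34 and 6.94 at 12 h.

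Of the 18 interferon and STAT transcription factors upstream, 13 were called up at 12 h and 15 at 6 h, and 1 had a higher and 3 a lower effect at 12 h. Irf1, the first factor of the interferon-gamma cascade, had 13.34, 13.41 and 13.19 in cytokine-treated and 8.17, 8.31 and 8.23 in untreated arrays at 12 h, and 12.95, 12.95 and 12.82 in cytokine-treated and 8.17, 8.21 and 8.12 in untreated arrays at 6 h. Treated arrays were high at both times and its time difference of 0.34 ± 0.16 was not called (adjusted p = 0.119), although it was in the fit with only the DMSO arrays (adjusted p = 0.0398). Nlrc5, the activator of MHC class I genes, was the 1 late member (1.76 ± 0.22, adjusted p = 3.83e-06). Stat5b (-0.71 ± 0.19) and Irf9 (-0.46 ± 0.17) had lower effects at 12 h, and both calls were lost with only the DMSO arrays (adjusted p = 0.0529 and 0.0812). That of Irf9 was also lost without both cytokine arrays numbered 3 (0.0791) and without any single array other than 6 h untreated 2, 6 h cytokine 3 and 12 h cytokine 1 (0.0538 to 0.124).

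In antigen presentation more effects were lower at 12 h. RT1-DMb, a chain of the class II peptide editor, had 7.78, 7.76 and 7.61 in cytokine-treated and 4.55, 5.28 and 5.33 in untreated arrays at 12 h, and 10.08, 10.17 and 10.44 in cytokine-treated and 5.05, 5.05 and 5.38 in untreated arrays at 6 h. Treated arrays of both times did not overlap and the untreated ones did, a time difference of -2.41 ± 0.23 (adjusted p = 9.26e-08). Of 12 class II genes, 7 had a lower and 1 a higher effect at 12 h, with a median of -0.80. RT1-Bb (-3.37 ± 0.33, with 1 of 2 probe sets of the other sign) and RT1-Db1 (-2.70 ± 0.24) encode class II beta chains. The invariant chain Cd74 kept an effect of 6.89 ± 0.13 at 12 h, against 8.62 ± 0.13 at 6 h (-1.73 ± 0.18, adjusted p = 3.79e-07). Rat MHC genes have near-identical copies, so a probe set may read more than 1 of them. In class I processing 8 of 18 were lower and 1 higher, with a median of -0.32. The time difference was -0.93 ± 0.15 for the peptide-loading factor Tapbp, -0.78 ± 0.15 for RT1-CE5, -0.54 ± 0.13 for the immunoproteasome subunit Psmb8 and -0.50 ± 0.10 for the proteasome activator Psme2. These genes were still called up at 12 h, with effects of 2.12, 2.54, 4.18 and 1.73.

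**Figure D3:**
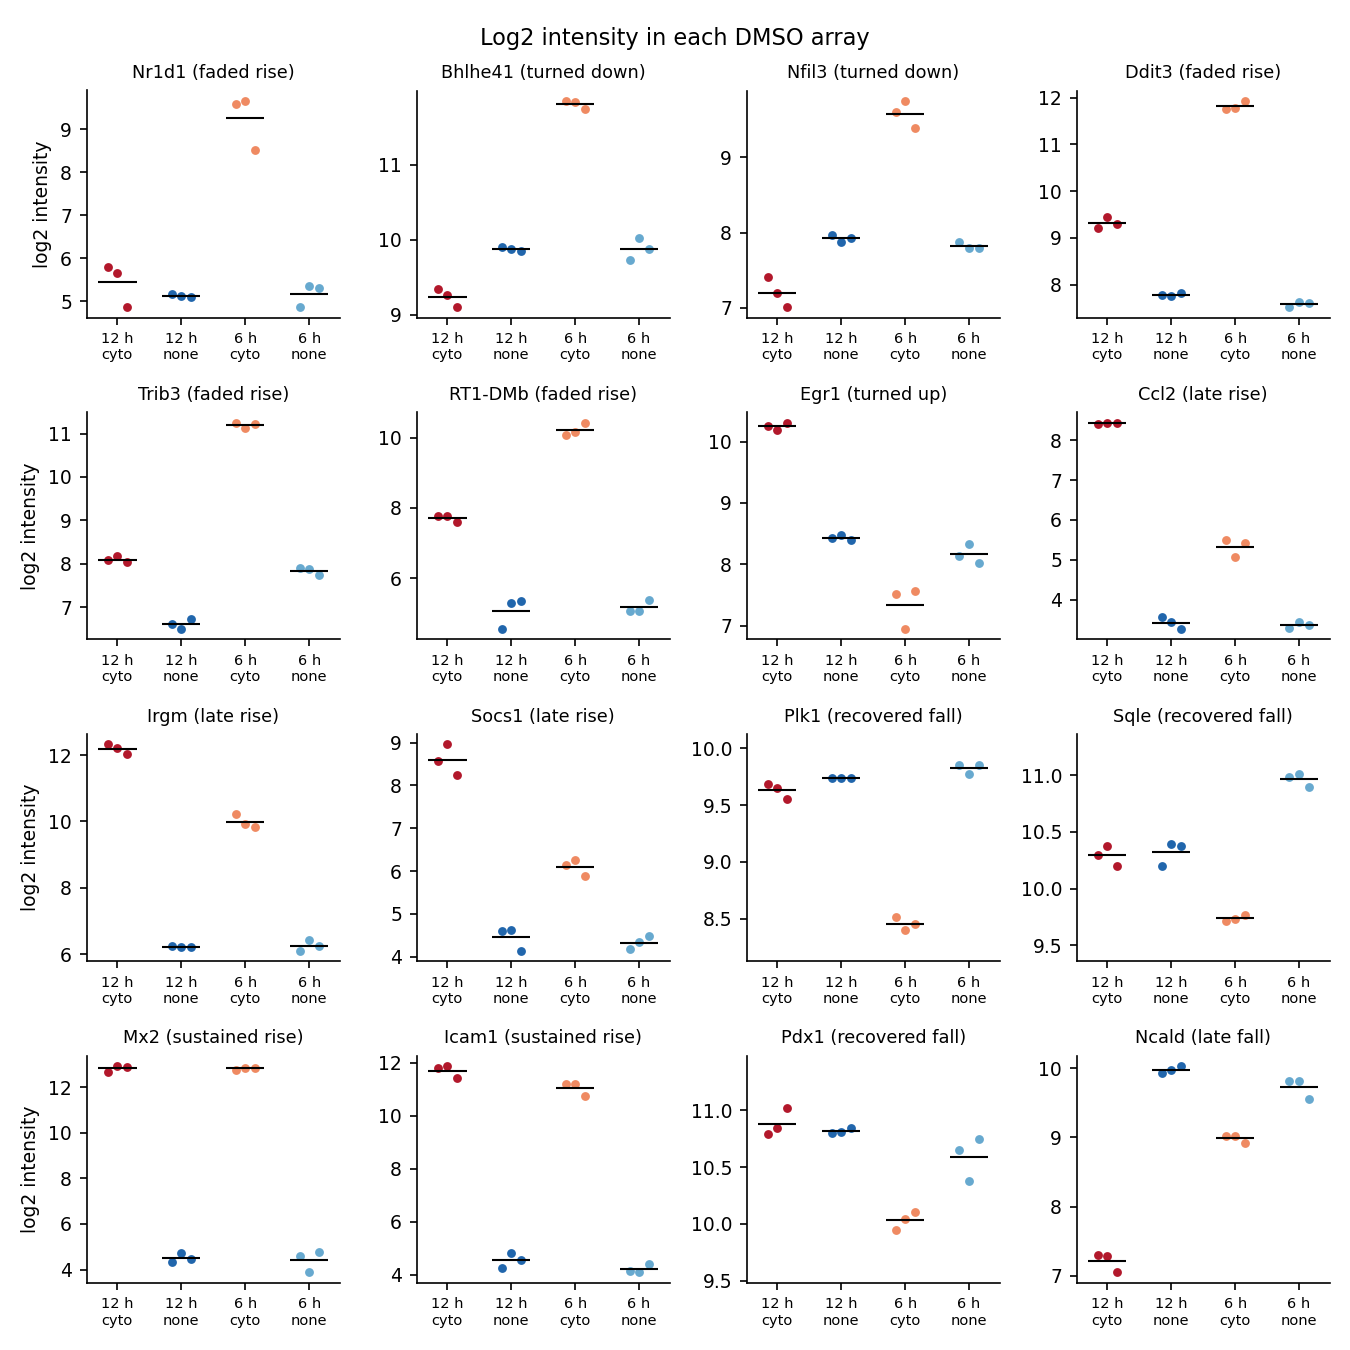
Log2 intensity of 16 genes in each of the 12 DMSO arrays, with 1 point per array, a bar at the group mean, and the groups from left to right 12 h with cytokines, 12 h untreated, 6 h with cytokines and 6 h untreated; the time class is in the title. In Nr1d1, Ddit3 and RT1-DMb the 6 h cytokine arrays stand highest, in Ccl2, Irgm and Socs1 the 12 h cytokine arrays do, and in Mx2 and Icam1 both do.

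Of 31 immediate early genes 8 were higher and 6 lower. Egr1, a zinc-finger factor induced by MAP kinases, had 10.25, 10.18 and 10.31 in cytokine-treated and 8.43, 8.47 and 8.39 in untreated arrays at 12 h, and 7.51, 6.95 and 7.56 in cytokine-treated and 8.13, 8.33 and 8.03 in untreated arrays at 6 h. It was above untreated cells at 12 h (1.82 ± 0.11) and below them at 6 h (-0.82 ± 0.11), a time difference of 2.64 ± 0.16 (adjusted p = 1.99e-10). Myc, a growth regulator, did the reverse and had 8.05, 7.79 and 7.96 in cytokine-treated and 8.38, 8.43 and 8.5 in untreated arrays at 12 h, and 10.03, 9.98 and 10.08 in cytokine-treated and 8.61, 8.63 and 8.76 in untreated arrays at 6 h. Its effect was -0.51 ± 0.07 at 12 h, against 1.36 ± 0.07 at 6 h (time difference -1.87 ± 0.11, adjusted p = 6.17e-11). The small Maf factor Maff rose less at 12 h (2.83 ± 0.14) than at 6 h (4.03 ± 0.14). Dusp6, a phosphatase that turns off ERK, had an effect of -0.05 ± 0.10 at 12 h, against a fall at 6 h (-1.08 ± 0.10). The fall of Fos was smaller at 12 h than at 6 h (-0.89 ± 0.18, against -1.88 ± 0.18). For Atf3 the effects of 3.98 ± 0.19 at 12 h and 3.87 ± 0.19 at 6 h differed by 0.12 ± 0.26, which was not called (adjusted p = 0.81).

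Clock genes had largely lower effects at 12 h. The clock is a feedback loop in which BMAL1 and CLOCK bind E-box letters and drive Per, Cry, Nr1d1 and Dbp, whose products act back on the loop. Of 20 measured clock genes, 0 were called up and 10 down at 12 h, against 12 up and 2 down at 6 h, and 14 had a lower and 1 a higher effect at 12 h. The median time difference was -0.65 and the median change between times was -0.80 in treated and -0.003 in untreated cells. Nr1d1, the repressor REV-ERB alpha, had 5.79, 5.64 and 4.87 in cytokine-treated and 5.17, 5.11 and 5.09 in untreated arrays at 12 h, and 9.60, 9.66 and 8.51 in cytokine-treated and 4.86, 5.34 and 5.31 in untreated arrays at 6 h. At 6 h the treated arrays stood far above all others, and at 12 h treated and untreated arrays overlapped, a time difference of -3.78 ± 0.35 (adjusted p = 7.61e-08). The cytokine arrays numbered 3 were the lowest of their groups, and without them it was -3.87. Dbp, a clock output factor, and Nfil3, its antagonist at D-box letters, both turned down. Dbp had an effect of -0.90 ± 0.10 at 12 h and 1.83 ± 0.10 at 6 h, and Nfil3 had -0.72 ± 0.09 and 1.76 ± 0.09. The 1 member of the other direction was the kinase Csnk1d (0.44 ± 0.08, adjusted p = 2.91e-04), named here after its value was seen.

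Bhlhe41 (DEC2), a repressor that competes for E-boxes, had 9.35, 9.26 and 9.10 in cytokine-treated and 9.91, 9.88 and 9.84 in untreated arrays at 12 h, and 11.85, 11.84 and 11.74 in cytokine-treated and 9.73, 10.02 and 9.88 in untreated arrays at 6 h. It too turned down, with an effect of -0.64 ± 0.08 at 12 h, against 1.93 ± 0.08 at 6 h, and a time difference of -2.57 ± 0.11 (adjusted p = 3.31e-12). Its promoter is shown because it carries an E-box close to the start.
Bhlhe41 promoter, chr4:180569306-180569605, minus strand: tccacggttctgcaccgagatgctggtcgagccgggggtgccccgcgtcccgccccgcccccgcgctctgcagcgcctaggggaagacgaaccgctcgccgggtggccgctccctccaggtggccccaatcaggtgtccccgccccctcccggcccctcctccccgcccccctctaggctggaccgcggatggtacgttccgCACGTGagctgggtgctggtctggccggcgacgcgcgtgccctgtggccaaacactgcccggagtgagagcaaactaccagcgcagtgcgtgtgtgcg
The capitals are the E-box CACGTG, the same on both strands, which begins 48 bases before the start. These letters occur in 6.65% of all promoters, in 8.94% of the 11700 promoters of measured genes and in 17.6% of 17 clock promoters. They are not particular to clock genes: they occur in 33.3% of 36 ribosome biogenesis and 29.4% of 17 aminoacyl-tRNA synthetase promoters. Other lists held fewer, such as 3.57% of 28 mitosis promoters. Among the classes with lower effects at 12 h the share was 14% of 336 turned-down, 13.2% of 962 faded-rise and 13.2% of 683 late-fall promoters. Among those with higher effects it was 7.89% of 76 turned-up, 7.85% of 331 late-rise and 7.89% of 989 recovered-fall promoters. In the sustained classes it was 6.63% of 181 rises and 5.93% of 135 falls.

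The stress genes of the ATF4 and CHOP arm were also early. ATF4 is translated when the kinase PERK or its relatives phosphorylate eIF2alpha, and it induces CHOP (Ddit3), Trib3 and genes of amino acid supply. Of 32 genes, 11 were called up at 12 h and 21 at 6 h, and 20 had a lower and 1 a higher effect at 12 h, with a median time difference of -0.55. In untreated cells 12 of the 32 were also lower at 12 h, against 1.21% of all genes, and the median change was -1.09 in treated and -0.20 in untreated cells. Ddit3, which can drive cell death under ER stress, had 9.22, 9.44 and 9.31 in cytokine-treated and 7.79, 7.75 and 7.83 in untreated arrays at 12 h, and 11.75, 11.79 and 11.93 in cytokine-treated and 7.52, 7.63 and 7.61 in untreated arrays at 6 h. Treated arrays at 12 h lay below all of those at 6 h and above all untreated arrays, a time difference of -2.71 ± 0.15 (adjusted p = 3.91e-11). Vldlr, a lipoprotein receptor, turned down, with -1.5 ± 0.06 at 12 h and 0.42 ± 0.06 at 6 h. Asns, asparagine synthetase, fell at 12 h (-0.59 ± 0.07) and had an effect at 6 h that was not called (-0.06 ± 0.07). The 1 member with a higher effect at 12 h was Chac1, which degrades glutathione (0.42 ± 0.14, adjusted p = 0.0309), named after its value was seen.

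Trib3, a pseudokinase that ATF4 and CHOP induce, had 8.08, 8.17 and 8.04 in cytokine-treated and 6.60, 6.50 and 6.73 in untreated arrays at 12 h, and 11.25, 11.13 and 11.22 in cytokine-treated and 7.91, 7.87 and 7.75 in untreated arrays at 6 h. Its untreated level was also lower at 12 h (-1.23 ± 0.12, adjusted p = 1.18e-06), so that the change in treated cells (-3.10 ± 0.12) was larger than the time difference of -1.87 ± 0.16 (adjusted p = 3.01e-08). Its promoter is shown for the ATF4-type letters near its start.
Trib3 promoter, chr3:161275484-161275783, minus strand: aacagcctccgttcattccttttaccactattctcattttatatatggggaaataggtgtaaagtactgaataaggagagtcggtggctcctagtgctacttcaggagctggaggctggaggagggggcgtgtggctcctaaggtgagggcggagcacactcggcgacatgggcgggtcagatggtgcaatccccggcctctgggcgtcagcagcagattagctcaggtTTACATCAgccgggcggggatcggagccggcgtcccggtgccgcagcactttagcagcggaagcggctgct
The capitals are TTACATCA, a match to TTNCATCA, the reverse complement of TGATGNAA, which begins 21 bases before the start. On either strand these letters occur in 3.82% of all promoters and in 2.2% of the 11700 promoters of measured genes. Among the lists the share was 24.1% of 29 promoters of the ATF4 and CHOP arm and 41.2% of 17 of aminoacyl-tRNA synthetases. It was also 33.3% of 12 of the BCL2 family and 16.7% of 18 of amino acid transporters, and 0% of 27 of ER chaperones and degradation factors.

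The aminoacyl-tRNA synthetases, which load amino acids onto tRNA and several of which are known ATF4 targets, were early as well: 7 of 18 were called up at 12 h and 14 at 6 h, and 9 had a lower and 0 a higher effect at 12 h (median -0.43). The untreated levels of 9 of the 18 were also lower at 12 h, and the median change was -0.69 in treated and -0.34 in untreated cells. Sars1 had an effect of -0.12 ± 0.07 at 12 h, against 1.11 ± 0.07 at 6 h, and its untreated level changed by -0.34 ± 0.07. Nars1, Mars1 and Iars1 had time differences of -0.95 ± 0.10, -0.78 ± 0.14 and -0.74 ± 0.15. Of 23 amino acid transporters 6 were lower and 5 higher. Slc3a2 and Slc7a5, the 2 chains of one large neutral amino acid exchanger, both turned down (-1.75 ± 0.09 and -1.65 ± 0.15), and Slc6a9, a glycine transporter, faded (-1.73 ± 0.40). Slc43a2 rose late (1.05 ± 0.21), but its second probe set was called the other way and the mean of both gave 0.08 (adjusted p = 0.742).

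ER chaperones and degradation factors had 15 of 34 lower and 3 higher at 12 h, with a median of -0.25. Hspa5 (BiP), the main ER chaperone, had 13.06, 13.13 and 13.13 in cytokine-treated and 13.36, 13.37 and 13.34 in untreated arrays at 12 h, and 13.39, 13.46 and 13.43 in cytokine-treated and 13.09, 12.94 and 13.16 in untreated arrays at 6 h. Its effect was -0.25 ± 0.06 at 12 h and 0.36 ± 0.06 at 6 h, while its untreated level was 0.30 ± 0.06 higher at 12 h (adjusted p = 0.00665). Dnajb9, a BiP cofactor, and Sdf2l1 turned down by more (-2.07 ± 0.20 and -1.55 ± 0.10), and so did Sel1l of the degradation complex (-1.19 ± 0.12). Edem1, which directs misfolded glycoproteins to degradation, turned up instead, with 1.13 ± 0.06 at 12 h and -0.55 ± 0.06 at 6 h (time difference 1.68 ± 0.09, adjusted p = 3.76e-11), in the same direction on all 3 probe sets.

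**Figure D4:**
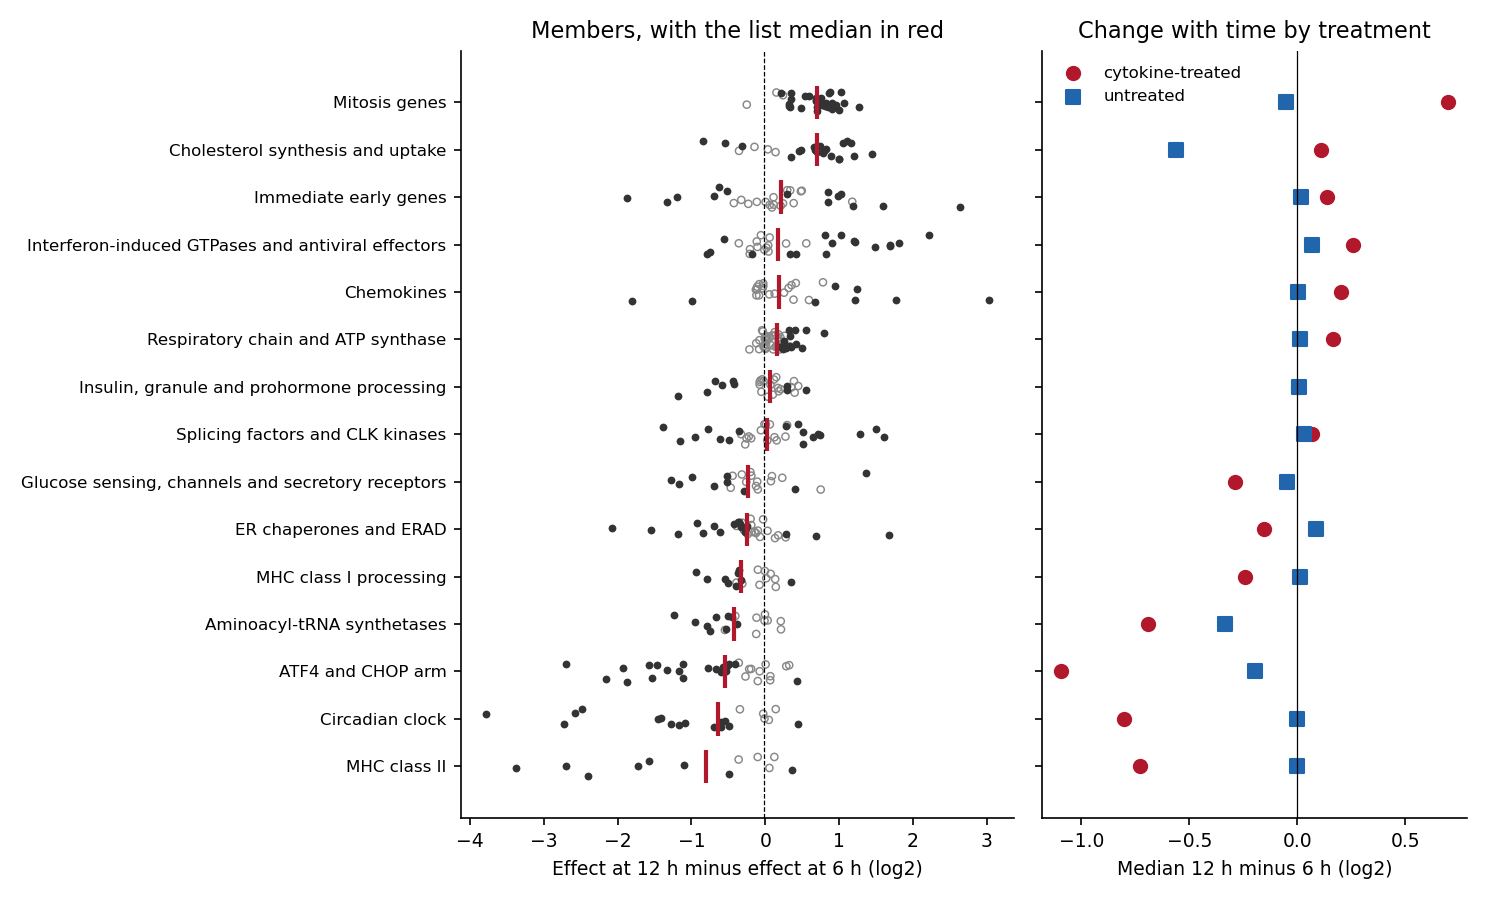
Left, the time difference (log2) of each measured member of 15 gene lists, filled where called and open where not, with the list median as a red bar and the median of all genes dashed. Right, the median change between 12 h and 6 h in cytokine-treated cells (red circles) and untreated cells (blue squares). For the cholesterol genes the treated median is 0.11 and the untreated one -0.56.

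In cholesterol synthesis the untreated cells moved more than the treated ones. SREBP2 drives these genes when sterols are low, and INSIG1 holds it back. Of 25 measured genes, 6 were called down at 12 h and 19 at 6 h, and 18 had a higher and 3 a lower effect at 12 h, with a median of 0.70. Sqle, squalene epoxidase, had 10.30, 10.38 and 10.20 in cytokine-treated and 10.20, 10.40 and 10.37 in untreated arrays at 12 h, and 9.72, 9.73 and 9.76 in cytokine-treated and 10.98, 11.01 and 10.90 in untreated arrays at 6 h. Treated and untreated arrays overlapped at 12 h. Between the times the treated level changed by 0.55 ± 0.06 and the untreated level by -0.64 ± 0.06 (adjusted p = 1.72e-06 for the untreated change). The time difference was 1.20 ± 0.09 (adjusted p = 3.19e-09). In untreated cells 18 of 25 members were lower at 12 h, against 1.21% of all genes. Acat2, which makes acetoacetyl-CoA, had 1.44 ± 0.14, with the treated change at 0.60 ± 0.10 and the untreated change at -0.84 ± 0.10. For Idi1, Insig1 and Msmo1 the treated changes were 0.31 ± 0.09, 0.18 ± 0.06 and 0.30 ± 0.07, and the untreated ones -0.86 ± 0.09, -0.82 ± 0.06 and -0.81 ± 0.07. Of 35 fatty acid and lipid genes, 9 were higher and 4 lower, among them Acaca, the committed step of fatty acid synthesis (1.34 ± 0.12, untreated change -0.52 ± 0.09), Elovl6 (0.94 ± 0.14) and Gpd1 (0.89 ± 0.12). Lpin1, a phosphatidate phosphatase, fell late (-0.93 ± 0.11).

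Mitosis genes recovered together, and for 0 of them was a change between the times called in untreated cells. Of 32 measured, 23 were called down at 12 h and 31 at 6 h, and 29 had a higher and 0 a lower effect at 12 h. The median effect was -0.31 at 12 h, against -0.98 at 6 h, and the median untreated change was -0.06. Plk1, the kinase that opens mitosis and shapes the spindle, had 9.68, 9.65 and 9.56 in cytokine-treated and 9.74, 9.74 and 9.74 in untreated arrays at 12 h, and 8.52, 8.40 and 8.46 in cytokine-treated and 9.85, 9.77 and 9.86 in untreated arrays at 6 h. Its 6 h cytokine arrays lay more than 1 below all other arrays, and the time difference was 1.26 ± 0.08 (adjusted p = 3.96e-10). Its promoter is shown because it holds the CHR, an element of cell cycle genes that peak in G2 and mitosis.
Plk1 promoter, chr1:186147408-186147707, plus strand: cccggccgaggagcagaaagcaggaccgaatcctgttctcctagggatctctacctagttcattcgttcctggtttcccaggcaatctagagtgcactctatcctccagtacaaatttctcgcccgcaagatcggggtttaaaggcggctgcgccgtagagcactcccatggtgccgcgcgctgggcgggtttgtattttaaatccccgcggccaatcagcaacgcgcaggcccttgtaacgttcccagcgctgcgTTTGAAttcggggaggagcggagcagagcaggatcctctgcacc
The capitals are TTTGAA, which begins at base 7 after the start. On either strand (TTTGAA or TTCAAA) these 6 letters occur in 18.1% of all promoters and in 12.3% of the 11700 promoters of measured genes. Among the 28 promoters of mitosis genes the share was 67.9%. Cdc20 (1.07 ± 0.12), Ccnb1 (1.03 ± 0.10) and Aurka (0.99 ± 0.12) recovered as well, with effects of -0.51, -0.39 and -0.45 left at 12 h.

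Genes of DNA replication and the G1/S step did not share that course, with 7 of 36 higher and 6 lower and a median of -0.05. Tk1, thymidine kinase, was higher (0.49 ± 0.08), and Pold1 (-0.54 ± 0.12), Cdt1 (-0.49 ± 0.13) and Uhrf1 (-0.49 ± 0.12) were lower. At 12 h 28 of the 36 were called down, against 22 at 6 h. Among CDK inhibitors and p53 targets 9 of 21 were lower and 3 higher. Gadd45a and Gadd45g, stress proteins that slow the cycle, faded (-1.11 ± 0.10 and -1.13 ± 0.14). Cdkn1a (p21) kept rising (2.54 ± 0.21 at 12 h, against 1.63 ± 0.21 at 6 h), though its call (adjusted p = 0.0234) was lost with only the DMSO arrays (0.0509) and without the 12 h cytokine array 2 (0.0752), the 12 h untreated array 2 (0.0513) or the 6 h cytokine array 3 (0.0725). Cdkn2c was recovering (0.81 ± 0.10), with 1 of 2 probe sets of the other sign and no call on their mean (adjusted p = 0.152).

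Mitochondrial and housekeeping groups had small time differences. Of 50 respiratory chain and ATP synthase genes, 31 were called down at 12 h and 40 at 6 h, and 14 had a higher and 0 a lower effect at 12 h, with a median of 0.16. Ndufa4 had the largest of these (0.80 ± 0.07, adjusted p = 1.53e-08), followed by Ndufa2 (0.55 ± 0.11), Ndufb3 (0.50 ± 0.10) and Ndufb7 (0.41 ± 0.09). Mitochondrial ribosomal proteins were split, with 7 of 47 higher (Mrpl20, 0.69 ± 0.13) and 13 lower (Mrpl2, -0.59 ± 0.09). Ribosome biogenesis had 11 of 39 lower and 1 higher, with Nob1 at -0.74 ± 0.10 and Pes1 at -0.61 ± 0.14. Of 33 proteasome subunits 7 were higher and 0 lower, led by Psma3 (0.70 ± 0.11) and Psmd3 (0.54 ± 0.15).

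In splicing, Clk4, a kinase of the SR splicing proteins, had 8.13, 7.95 and 8.05 in cytokine-treated and 8.29, 8.18 and 8.17 in untreated arrays at 12 h, and 8.47, 8.68 and 8.47 in cytokine-treated and 7.29, 7.57 and 7.09 in untreated arrays at 6 h. Its untreated level was 0.89 ± 0.10 higher at 12 h (adjusted p = 6.91e-06), and the effect was -0.17 ± 0.10 at 12 h, against 1.22 ± 0.10 at 6 h. Some splicing factors that bind RNA had the opposite course: Sfpq (-0.55 ± 0.06 at 12 h, against -2.15 ± 0.06 at 6 h), Srsf5 (-0.23 ± 0.08, against -1.73 ± 0.08) and Srsf2 (0.18 ± 0.07, against -1.11 ± 0.07). In all 10 of 31 were higher and 7 lower, with a median of 0.03.

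Among beta-cell genes, Ins1 and Ins2 had time differences of 0.04 ± 0.07 and 0.17 ± 0.08 that were not called (adjusted p = 0.784 and 0.144). Their group means lay between 14.18 and 14.58, at the top of the range of the files (highest value 14.6), so these values do not show that the transcripts were stable. Ins2 was called after quantile normalization (0.31, adjusted p = 0.003), with array weights (0.21, 0.0455), with the intensity trend and robust prior (0.17, 0.0383) and without the 6 h untreated array 2 (0.23, 0.0472). Pdx1, a master factor of beta cells, had 10.79, 10.85 and 11.02 in cytokine-treated and 10.81, 10.81 and 10.84 in untreated arrays at 12 h, and 9.94, 10.04 and 10.10 in cytokine-treated and 10.65, 10.37 and 10.75 in untreated arrays at 6 h. Its effect was 0.07 ± 0.08 at 12 h, against -0.56 ± 0.08 at 6 h, and the treated arrays at 12 h lay above all those at 6 h (time difference 0.63 ± 0.11, adjusted p = 2.26e-04). Mafa fell at both times and slightly more at 12 h (-0.28 ± 0.10, adjusted p = 0.0294), a call lost in 9 of the alternative fits: only the DMSO arrays (0.0716), array weights (0.0534), arrays centred on their medians (0.0554), both cytokine arrays numbered 3 left out (0.0782), and 1 array left out (6 h untreated 2, 6 h cytokine 3, 12 h untreated 2 or 3, 12 h cytokine 2, between 0.0516 and 0.0886). Nkx6-1 was a sustained fall (-1.76 ± 0.11 at 12 h, against -1.52 ± 0.11 at 6 h). Of 19 beta-cell transcription factors 5 were lower and 3 higher. St18 (-1.40 ± 0.29), Myt1 (-1.25 ± 0.12) and Foxa3 (-0.94 ± 0.18) were among the first, and Tcf7l2, an effector of Wnt signalling, was among the second (0.71 ± 0.21), a call lost with both cytokine arrays numbered 3 left out (adjusted p = 0.0704).

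In the secretory machinery 6 of 27 granule and processing genes were lower and 3 higher. Syt7 (on 2 of 3 probe sets) and Syt4, both synaptotagmins of secretory vesicles, had lower effects at 12 h (-1.18 ± 0.15 and -0.79 ± 0.10), as was the vesicle GTPase Rab3a (-0.68 ± 0.23), whose call was lost on the mean of its probe sets (adjusted p = 0.189) and without 1 of 5 arrays (6 h untreated 2, 6 h cytokine 1 or 2, 12 h untreated 1, 12 h cytokine 3, adjusted p between 0.0517 and 0.0889). Pam, which amidates peptide hormones, was higher (0.55 ± 0.09), but 1 of its 3 probe sets was called the other way and the mean of all gave -0.05 (adjusted p = 0.79). Of 22 genes of glucose sensing, channels and receptors, 7 were lower and 2 higher. Slc2a2, the glucose transporter GLUT2, had a time difference of -0.13 ± 0.08 that was not called (adjusted p = 0.265), while Slc2a1 (GLUT1) turned down (-1.17 ± 0.14). Adra2a, the adrenergic receptor that restrains insulin release, had 8.55, 8.61 and 8.56 in cytokine-treated and 9.64, 9.62 and 9.63 in untreated arrays at 12 h, and 7.37, 7.16 and 7.09 in cytokine-treated and 9.58, 9.77 and 9.54 in untreated arrays at 6 h. Its fall was smaller at 12 h (-1.05 ± 0.07) than at 6 h (-2.42 ± 0.07), at a steady untreated level. Sstr3 (-1.0 ± 0.12) and Igf1r (-0.70 ± 0.18) had lower effects at 12 h. In glycolysis, with 4 of 26 higher and 2 lower, Pfkfb3, which makes the activator of phosphofructokinase, turned up (1.35 ± 0.08 at 12 h, against -0.55 ± 0.08 at 6 h, on 2 of 3 probe sets), Tpi1 recovered (0.81 ± 0.10) and Pdk2, an inhibitor of pyruvate dehydrogenase, faded (-0.82 ± 0.30), a call lost with only the DMSO arrays (adjusted p = 0.0976), on the mean of probe sets (0.0654) and without any single array other than 6 h cytokine 3 and 12 h cytokine 1 or 2 (0.0591 to 0.128).

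Among caspases, death receptors and RIP kinases, 3 of 23 were higher and 3 lower, near the shares over all genes (11.8% and 16.9%). Apaf1, the apoptosome scaffold, rose late, with an effect of 1.06 ± 0.10 at 12 h and -0.07 ± 0.10 at 6 h, and Tnfrsf21 fell late (-1.10 ± 0.16). In the BCL2 family 4 of 16 were higher and 3 lower: the killer proteins Bbc3 (-0.75 ± 0.14) and Hrk (-0.78 ± 0.18) faded, Bok rose late (0.75 ± 0.11) and Bcl2l11 (BIM) recovered (-0.19 ± 0.06 at 12 h, against -1.19 ± 0.06 at 6 h). Of 35 antioxidant genes 6 were higher and 7 lower. Mt2A, a metallothionein, had 8.35, 8.41 and 8.40 in cytokine-treated and 7.07, 7.10 and 7.26 in untreated arrays at 12 h, and 10.32, 10.59 and 10.54 in cytokine-treated and 6.96, 6.62 and 7.16 in untreated arrays at 6 h. Treated arrays of both times lay above the untreated ones but far apart from each other (-2.33 ± 0.19, adjusted p = 1.32e-08). Heme oxygenase Hmox1 faded (-1.29 ± 0.11), and Nfe2l2 itself (NRF2) turned down (-1.06 ± 0.12). Slc7a11, the cystine exchanger, was lower at 12 h in both treated (-1.97 ± 0.15) and untreated cells (-1.07 ± 0.15), a time difference of -0.90 ± 0.21. Heat shock proteins had 2 of 22 higher (Dnajb1, 0.65 ± 0.07, and Hspa4, 0.38 ± 0.08) and 3 lower (among them Bag3, -0.70 ± 0.13, and Hspa9, -0.54 ± 0.09). Nos2, the inducible nitric oxide synthase, had group means between 5.88 and 6.17 on its only probe set, and neither effect was called (-0.02 ± 0.11 at 12 h and 0.10 ± 0.11 at 6 h). Whether this probe set reports the gene was not tested, so its values say nothing firm about the transcript. Of 20 nitric oxide and arginine genes 4 were higher (among them Ddah2, 0.76 ± 0.12) and 3 lower. One of these was the arginine transporter Slc7a1 (-0.57 ± 0.12), whose level changed by -1.42 ± 0.09 in treated and -0.85 ± 0.09 in untreated cells.

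Some of the largest time differences lay outside these lists. Adm, the vasodilator adrenomedullin, had 7.41, 7.43 and 7.0 in cytokine-treated and 6.45, 6.06 and 6.45 in untreated arrays at 12 h, and 9.89, 9.74 and 9.88 in cytokine-treated and 6.28, 5.78 and 6.35 in untreated arrays at 6 h, a time difference of -2.74 ± 0.25 (adjusted p = 7.06e-08). Cd83, an immune surface protein, and Crebrf, a regulator of the unfolded protein response, faded too (-2.50 ± 0.12 and -2.49 ± 0.21). Plvap, a protein of endothelial diaphragms, had no effect that was called at 12 h (-0.02 ± 0.21), against 2.67 ± 0.21 at 6 h. Of the complement genes C3 faded (-1.54 ± 0.17) and the regulator Cd55 recovered (0.57 ± 0.12), and these were the only calls among 19.

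Among the late falls Ncald, the calcium sensor neurocalcin delta, had 7.30, 7.29 and 7.05 in cytokine-treated and 9.93, 9.97 and 10.03 in untreated arrays at 12 h, and 9.03, 9.02 and 8.92 in cytokine-treated and 9.81, 9.81 and 9.56 in untreated arrays at 6 h. Both treated groups lay below their untreated ones, and the gap was -2.76 at 12 h, against -0.73 at 6 h (time difference -2.03 ± 0.12, adjusted p = 6.17e-11). Pdzrn3, a ubiquitin ligase, had -2.16 ± 0.14, Ppp1r3b, a glycogen-targeting phosphatase subunit, -1.97 ± 0.14, and the amino acid transporter Slc6a15 -1.64 ± 0.13. Prss23 (-1.63 ± 0.19), Fam163b (-1.53 ± 0.14) and C11h21orf91 (-1.95 ± 0.24) followed. For Mest, an imprinted gene, the untreated level was higher at 12 h (0.86 ± 0.21, adjusted p = 0.0428) and the treated level lower (-0.67 ± 0.21).

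Among the recovered falls Mat2a, which makes S-adenosylmethionine, had 9.83, 10.06 and 10.19 in cytokine-treated and 10.29, 10.29 and 10.28 in untreated arrays at 12 h, and 7.98, 8.03 and 8.40 in cytokine-treated and 10.45, 10.34 and 10.48 in untreated arrays at 6 h. Treated arrays at 6 h stood below all others, a time difference of 2.03 ± 0.14 (adjusted p = 8.91e-10). Dgcr8 of the microRNA-processing complex had an effect of -0.56 ± 0.11 at 12 h, against -2.22 ± 0.11 at 6 h. The Wnt receptor Fzd6 (1.83 ± 0.15), the centromere protein Cenpw (1.93 ± 0.12), Dido1 (2.21 ± 0.20) and Eeig2 (2.04 ± 0.09) had recovered, with effects at 12 h between -0.26 and 0.08 in these and Mat2a. Poteml2 had a time difference of 1.63 ± 0.15, with a change of 0.65 ± 0.11 in treated and -0.98 ± 0.11 in untreated cells.

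Genes that turned up or down crossed the untreated level. Ppp1r10, a nuclear phosphatase subunit, had an effect of 0.38 ± 0.10 at 12 h and -1.87 ± 0.10 at 6 h. The galactosyltransferase gene B4galt5 had 0.36 ± 0.08 and -1.88 ± 0.08, and A3galt2, another of this enzyme kind, had 0.25 ± 0.08 and -1.97 ± 0.08. Tmem50b (1.93 ± 0.11), the protocadherin Pcdh10 (1.95 ± 0.15) and the semaphorin Sema3e (1.90 ± 0.18) turned up as well. In the other direction the homeobox gene Barhl1 had 6.39, 6.45 and 5.22 in cytokine-treated and 6.87, 6.88 and 6.87 in untreated arrays at 12 h, and 9.73, 9.74 and 8.39 in cytokine-treated and 6.87, 6.53 and 6.68 in untreated arrays at 6 h. Its cytokine arrays numbered 3 were more than 1 below the other two at both times. Its time difference was -3.45 ± 0.46 (adjusted p = 6.86e-06), and -3.50 without those arrays. Hmx1, also a homeobox gene, had -0.91 ± 0.08 at 12 h and 1.69 ± 0.08 at 6 h, the corepressor Tle3 -0.60 ± 0.08 and 1.83 ± 0.08, and G0s2, an inhibitor of fat breakdown, -1.85 ± 0.15 and 0.56 ± 0.15. For Uap1l1 the time difference was -2.92 ± 0.16.

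Among the sustained falls, the peptide transporter gene Slc15a2 had 4.01, 3.76 and 4.34 in cytokine-treated and 7.25, 7.45 and 7.36 in untreated arrays at 12 h, and 4.17, 4.11 and 4.26 in cytokine-treated and 7.28, 7.52 and 7.21 in untreated arrays at 6 h. Treated arrays lay near the lower quartile of all values at both times, and the time difference of -0.16 ± 0.18 was not called (adjusted p = 0.585). Mertk, a receptor kinase for dying cells, had -3.15 ± 0.15 at 12 h and -2.85 ± 0.15 at 6 h, and its time difference of -0.29 ± 0.21 was called with both cytokine arrays numbered 3 left out (-0.55, adjusted p = 0.0469). Tmem100 (-2.74 ± 0.08 and -2.97 ± 0.08), Nap1l5 (-2.77 ± 0.11 and -2.41 ± 0.11) and Rem2, a GTPase that acts on calcium channels (-2.39 ± 0.11 and -2.77 ± 0.11), were lower at both times. Tmem100 was called after quantile normalization (0.28, adjusted p = 0.047). For Mertk and Rem2, 1 of 2 probe sets gave a time difference of the other sign. The time differences of Nap1l5 and Rem2 were not called (adjusted p = 0.0909 and 0.0656) and were called in 7 and 4 of the alternative fits.

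Of 12 adhesion and costimulatory genes 1 had a higher and 1 a lower effect at 12 h, and of 27 TGF-beta and matrix genes 3 and 2, against 11.8% and 16.9% over all genes. Sdc4, a cell-surface proteoglycan, had 0.73 ± 0.11, and Timp2, an inhibitor of matrix proteases, 0.59 ± 0.11. Among markers of other cell types Gcg (glucagon) had 0.54 ± 0.15, Thy1 0.17 ± 0.39 and Krt7 -0.23 ± 0.08, with adjusted p of 0.00821, 0.805 and 0.0404. The call of Krt7 was lost without any single array other than 6 h cytokine 2 or 3 and 12 h cytokine 2, and in 4 further fits (adjusted p between 0.0506 and 0.0935).

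The 12 BRD0476 arrays gave the same quantity from other cells of the series. There 290 genes (2.04%) had a higher and 771 (5.42%) a lower cytokine effect at 12 h than at 6 h. Of the 1151 faded rises, set on the DMSO arrays, 187 were called the same way and 6 the other way with BRD0476, with a median of -0.17 with BRD0476, against -0.61 with DMSO. Of 403 late rises these counts were 90 and 6 (median 0.19 with BRD0476, against 0.64 with DMSO), of 819 late falls 195 and 7 (-0.24, against -0.50) and of 1161 recovered falls 72 and 24 (0.03, against 0.53). The turned-down genes had 119 of 388 called the same way and 0 the other way. For the mitosis genes 2 of 32 were called with a median of 0.13, against 0.70, and for the clock genes 3 of 20 in the same direction and 1 in the other with a median of -0.10, against -0.65. For the antiviral effectors the median was 1.03, against 0.17, with 19 of 30 called with the sign of their own DMSO value and 3 with the other. The classes were set on the DMSO values and not on those with BRD0476. Part of each gap between the class medians therefore follows from the selection, and how much was not tested. The difference between compound and vehicle was not tested.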

How the data were processed

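RNA of INS-1E cells was measured on 24 Affymetrix rat arrays with 31099 probe sets. The deposited values are linear intensities after RMA (background correction, normalization and probe summary across arrays), per the submitters' processing notes; its version is not given in the sources used here. No detection calls or probe intensities were used, so the number of arrays limits the precision. Intensities as deposited were turned to log2. The 20832 probe sets with 1 gene symbol gave 14217 genes, each by its brightest probe set.

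All 24 arrays entered 1 fit of 8 group means (limma 3.58.1 in R 4.3.3, lmFit and eBayes, 16 residual and 3.97 prior degrees of freedom), and the contrast was tested with Benjamini-Hochberg adjustment over 14217 genes at 0.05. With 3 arrays against 3 an exact permutation test cannot go below 0.1. The fit was also run on simulated data with independent noise in each array. Those data lacked the shared deviation of the cytokine arrays numbered 3, so they cannot show how it bears on the calls. Figures were drawn with Python 3.11.15 and matplotlib 3.10.9.

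The comparison and the 42 gene lists (1149 members, 1018 measured) were chosen with earlier results of these data known. Named genes had a group mean of at least 7: in each time class the 8 with the largest time difference (in the sustained classes, the largest smaller effect), in each list up to 4 called members (2 where none was called), and 26 panel genes, 24 of them measured.

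Replicate numbers were checked by the correlation of array deviations from group means. Between the 12 h and 6 h cytokine groups all 3 same-numbered pairs exceeded 0.1 (0.42, 0.396 and 0.722). So did array 1 at 12 h with array 2 at 6 h (0.282) and array 2 with array 1 (0.329). Array 3 correlated negatively with arrays 1 and 2 of the other time (-0.545 to -0.483). The numbers thus set array 3 apart at both times, and pairing of arrays 1 and 2 by number is not shown. Alternatives were the replicate block, only the 12 DMSO arrays, array weights, another variance prior, the mean of probe sets, dim genes (under 6) left out, 2 other scalings and each array left out.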

Additional observations from a re-analysis of the deposited data

Results flagged for a closer look

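The difference between the cytokine effects at 12 h and 6 h was tested directly by limma and was called for 4089 of 14217 genes. Of these, 485 were called in opposite directions at the 2 times.

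Among genes with a group mean of at least 7 (83 of the 97 that turned up and 326 of the 388 that turned down), those with the largest upward change of direction, with a positive effect at 12 h and a negative one at 6 h, were Egr1 (time difference 2.64), Ppp1r10 (2.24), B4galt5 (2.24), A3galt2 (2.22), Pcdh10 (1.95), Tmem50b (1.93), Pfkfb3 (1.90) and Sema3e (1.90). Those with the largest downward change were Barhl1 (-3.45), Uap1l1 (-2.92), Dbp (-2.73), Hmx1 (-2.60), Bhlhe41 (-2.57), Nfil3 (-2.48), Tle3 (-2.44) and G0s2 (-2.41). Among the last 8, Dbp, Bhlhe41 and Nfil3 belong to the clock list.

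Signal also lay in probe sets that carry no single gene symbol and enter no gene count: of 10216 such probe sets outside the array controls, 1358 (13.3%) were called for the time difference in limma, 880 with a higher and 478 with a lower effect at 12 h. This is a count over probe sets, and what they measure was not analysed here.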

How the results depend on the processing

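The counts of genes with a higher (1681) and a lower (2408) effect at 12 h stayed within 1.5 times under every alternative fit. With only the 12 DMSO arrays they were 1344 and 1930. They were 1639 and 2369 with the replicate block on all arrays, and 1921 and 2678 with a replicate block in the cytokine-treated DMSO arrays only, an alternative chosen after seeing the data. Requiring a change of at least 1 left 215 and 385. The time change in untreated cells (66 up, 172 down) was the count that moved: 18 up and 83 down with only the 12 DMSO arrays, 824 up and 721 down with array weights, 115 up without dim genes and 100 up with the replicate block in the cytokine-treated arrays. The cause was not tested. Over all 18 same-numbered cross-group pairs, the cytokine pairs included, the correlation ran between -0.176 and 0.722, with 5 over 0.1. Over 36 different-numbered pairs it ran between -0.545 and 0.329, with 9 over 0.1. The block on all arrays moved no count by more than 1.5 times.

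With 1 array left out, the counts ran between 1475 and 1683 (higher at 12 h), 2085 and 2426 (lower), and, in untreated cells, between 29 and 135 up and 103 and 187 down. The lowest of the untreated counts came without the 12 h array 2, and the 135 without the 6 h array 2.

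Of 181 called named genes, 168 kept direction and call under all 22 settings, 12 lost the call under some, and Pam reversed on the mean of its probe sets (-0.054, adjusted p = 0.79). Stat5b, Tcf7l2, Slc43a2 and Cdkn2c lost it under 1 setting each. Of 1848 list counts, 129 moved by over 1.5 times. Other scalings shifted the median time difference by 0.02 (arrays centred) and 0.006 (quantile), and the share of called genes with a higher effect was 44.2% and 44%, against 41.1%.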
